A study of Mus musculus and Mus spretus with 72 samples.

Results

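Ion channel genes named as voltage-gated were followed through brain, liver/kidney and testis of wild mice. The members are the array probes whose single gene symbol starts with Kcn, with Scn followed by a digit, or with Cacn, leaving out Kcne2. There were 112 such probes for 94 genes, of 22089 probes and 14386 named genes in all, and 13 of the genes had several probes. By symbol they fell into 26 probes of pore-forming voltage-gated potassium (Kv) subunits, 11 of Kv auxiliary subunits, 14 of inward rectifier (Kcnj) and 8 of 2-pore (Kcnk) potassium channels. Another 11 had Kcnm, Kcnn or Kcnu symbols, a group labelled calcium or sodium activated. That label is loose, since the Kcnmb symbols in it name auxiliary subunits. Sodium channels contributed 8 alpha and 3 beta subunit probes. Calcium channels contributed 13 probes of pore-forming Cacna1 subunits, 3 of Cacna2d, 6 of Cacnb and 6 of Cacng subunits. The last 3 probes carry the symbols of antisense transcripts (Kcnd3os, Kcnmb4os1 and Kcnmb4os2).

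Voltage-gated sodium channels carry the upstroke of the action potential, voltage-gated potassium channels end it and set firing rate, and calcium channels couple depolarisation to transmitter release and gene expression. Their pore-forming subunits are joined by auxiliary subunits that set surface level and gating. In the brain the families are best known for their part in excitability and epilepsy, in the kidney tubule for potassium recycling, and in the testis for the membrane potential and calcium entry of sperm. The shared name does not cover every member: inward rectifier and 2-pore channels hold the resting potential and lack a voltage sensor of the Kv kind, and antisense transcripts encode no channel.

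Each of 72 arrays set RNA of 1 male mouse, roughly 12 weeks old, against a reference of matching tissue pooled from 9 mice of the laboratory strain C57BL6. Each tissue had 6 arrays of dom (Mus musculus domesticus), 6 of mus (Mus musculus musculus), 6 of ssp (Mus musculus of a sub-species that the labels do not name), 3 of cas (Mus musculus castaneus) and 3 of spretus (Mus spretus, another species). The first 4 are called the house mouse groups below, and the comparisons ask how expression differed between sub-species and between species. The labels give no genetic modification or treatment for any group, and they do not say how liver and kidney were combined. Values are log ratios taken as log2 of sample over pool. Neither the log base nor the direction is stated in the sources used here, and with the opposite direction all signs would turn together. A ratio against such a pool gives no level, so genes and tissues cannot be ranked by expression, and whether a tissue expresses its defining markers could not be checked. In these bulk samples fewer cells of a type and less RNA per cell cannot be told apart.

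Arrays were clustered into 3 sets by which spots hold no value, and the number of sets was a setting of the clustering. Dom lay in set 1 except 1 testis array, spretus in set 2 except 1 liver/kidney array in set 3, and cas in set 2 except 1 brain array in set 3. Mus and ssp of brain and mus of testis lay in sets 1 and 2, and mus and ssp of liver/kidney and ssp of testis lay in set 1 alone. What made the sets is not stated. The testis dom array outside set 1 was array 1, and its place in set 2 is weakly determined, since its pattern of spots without a value correlated with that of the set's other arrays with a median r of 0.067, against 0.606 over all pairs within sets. Mus array 8 of brain is mus by its title and domesticus by its channel label, and it was kept in mus. Over the channel probes the duplicate spots of an array correlated with a median r of 0.66 (-0.20 to 0.90), lowest in dom array 13 of brain, and over all probes with a median of 0.559 (0.273 to 0.785). The test below is limma with Benjamini-Hochberg adjustment over all probes of a tissue, and a probe is called at an adjusted p under 0.05. Changes are log2 differences ± SE from that fit, and p-values measure the spread between these males. A probe was tested where every group had at least 2 values. Of 112 members, 108 passed in brain and 108 in liver/kidney, and 110 passed in testis. Kcnn3 and Kcnip1 passed in no tissue, and Kcnmb2 and probe 2 of Kcnh3 passed in testis alone.

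Most channel probes were called in no comparison between groups. Of the 110 members tested in some tissue, 25, each of a different gene, were called in at least 1 of the 12 comparisons between groups, with 28 calls in all, and 85 were never called. Nearly all of the calls were for spretus, the other species. Spretus against the mean of the house mouse groups gave 5 called members for brain, 7 for liver/kidney and 12 for testis. These were 21 probes in all, and no probe was called in all 3 tissues. The shares of all probes called in any of these comparisons, or in all tissues, are not given here. These totals therefore do not compare the members with other probes. In brain 4.63% of the tested members and a background of 3.95% of all probes were called. The shares were 6.48% and 7.49% for liver/kidney, and 10.9% and 9.42% for testis. The members were thus called about as often as other probes in this fit, and what follows describes which of them moved. With array weights 18 members were called for spretus in brain in place of 5. The share of all probes called with array weights is not given here, so this count does not compare the members with other probes. At an unadjusted p under 0.05 the brain shares were 24.1% of the members and 19.2% of all probes.

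**Figure D1:**
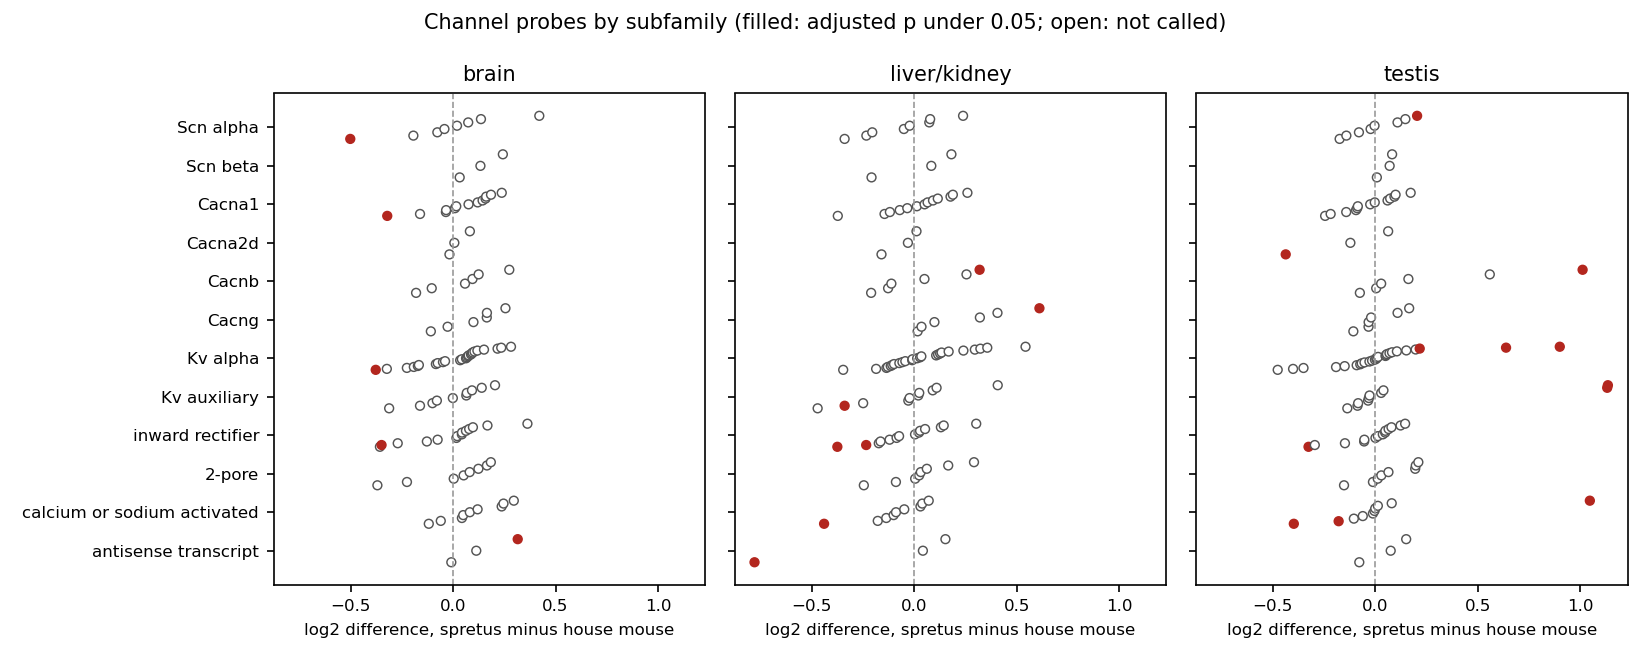
Log2 difference of spretus from the mean of the house mouse groups (x axis) for every tested channel probe, by subfamily (y axis), in brain, liver/kidney and testis. Filled points passed an adjusted p under 0.05 and open points did not. In testis 6 filled points lie between 0.64 and 1.13, beyond any brain point.

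In brain the medians of the 12 subfamilies for spretus ranged from -0.01 for sodium channel alpha subunits to 0.13 for sodium channel beta and Cacng subunits, and the median was 0.06 over all members and 0.02 over all probes. No brain subfamily had more than 1 call. In liver/kidney the medians ranged from -0.09 for the group labelled calcium or sodium activated to 0.21 for Cacng subunits, with 0.02 over all members. In testis the medians ranged from -0.12 for Cacna2d to 0.09 for Cacnb subunits. There the Kv alpha subunits had 3 calls among 26 probes, all higher, and the Kv auxiliary subunits had 2 among 10, both higher.

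The stretch upstream of the start is shown for 2 members, because the results turn on them and each has a single start in RefSeq (GRCm38.p6). Kcna5 is the member with the smallest p for spretus in testis, and Kcna3 is the one that stood lowest against the pool. The windows are chr6:126535556-126535805 on the minus strand for Kcna5 and chr3:107035912-107036161 on the plus strand for Kcna3, written 5′ to 3′ up to the base before the start. Capitals mark GC boxes.
Kcna5: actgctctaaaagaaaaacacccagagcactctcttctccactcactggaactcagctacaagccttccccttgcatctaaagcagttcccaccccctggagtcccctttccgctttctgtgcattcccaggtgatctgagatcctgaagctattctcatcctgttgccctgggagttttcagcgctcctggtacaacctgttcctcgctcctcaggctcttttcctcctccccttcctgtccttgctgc
Kcna3: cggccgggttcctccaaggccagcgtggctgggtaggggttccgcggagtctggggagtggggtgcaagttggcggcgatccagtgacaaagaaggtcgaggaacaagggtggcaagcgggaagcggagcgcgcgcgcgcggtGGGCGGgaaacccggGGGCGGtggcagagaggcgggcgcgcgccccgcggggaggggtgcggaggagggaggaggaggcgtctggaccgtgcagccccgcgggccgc
Searched on either strand, the GC box GGGCGG lies in 32.7% of all 32851 RefSeq windows of this length, the TATA box letters TATAAA in 12.4% and the cyclic AMP response element TGACGTCA in 1.55%. The Kcna3 window held 2 GC boxes and neither of the others, and the Kcna5 window held none of the 3. The Kcna5 window is 53.2% G or C and the Kcna3 window 74.4%. A match describes letters only, and the arrays measured no binding.

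In brain, spretus differed from the house mice in 5 channel probes, 4 lower (background 2.07%) and 1 higher (background 1.88%), and none by as much as 1.5-fold. The sodium channel relative Scn7a, a sensor of extracellular sodium in glia, gave -0.40, -0.31 and -0.51 on its probe 2 in the 3 spretus brains, against -0.23 to 0.40 (median 0.08) in the 21 house mouse brains. All spretus arrays lay below all house mouse arrays, and the fitted difference was -0.50 ± 0.09 (adjusted p = 0.00153), or 1.42-fold. Probe 1 of the same gene showed 0.07 ± 0.12, so the probes of Scn7a disagree. Such disagreement was common. Counting values near 0, probes of a gene had unlike signs for spretus in 8 of 12 genes with several tested probes in brain. The counts were 10 of 12 in liver/kidney and 6 of 13 in testis. Probe sequences were not given, so why probes of a gene differ was not tested, and a call on 1 probe describes that probe. The inward rectifier Kcnj16, which forms astrocyte and kidney channels together with Kcnj10, read -0.40, -0.35 and -0.32 in spretus against -0.19 to 0.23 (median -0.03) in the house mice. These groups did not overlap either, and the difference was -0.35 ± 0.06 (adjusted p = 0.00275).

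The other 3 brain calls were less firm. Kcnh1, a Kv subunit of the ether-a-go-go family, read -0.29, -0.23 and -0.22 in spretus and -0.18 to 0.39 (median 0.10) in house mice, with a difference of -0.38 ± 0.09 (adjusted p = 0.0212). Cacna1b, the pore of the N-type calcium channel that triggers transmitter release, read -0.31, -0.37 and -0.14 against -0.16 to 0.24 (median 0.06), so the ranges touched, with a difference of -0.32 ± 0.09 (adjusted p = 0.0362). Kcnd3os, named as antisense to the Kv subunit gene Kcnd3, was the member that was higher, at 0.22, 0.24 and 0.32 against -0.30 to 0.26 (median -0.06), a difference of 0.32 ± 0.07 (adjusted p = 0.0163). Kcnd3 itself gave -0.23 ± 0.11 and was not called (adjusted p = 0.252), and the strand that the probes read is not given in the sources used here. Without any 1 of the 3 spretus arrays, Kcnh1, Cacna1b and Kcnd3os lost the call, with adjusted p up to 0.125, 0.205 and 0.111 and differences of -0.39 to -0.36, -0.39 to -0.27 and 0.29 to 0.34 over all arrays left out in turn. Scn7a probe 2 and Kcnj16 kept it in all 24 such fits, and these 5 were called again with the set of arrays as a random block.

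**Figure D2:**
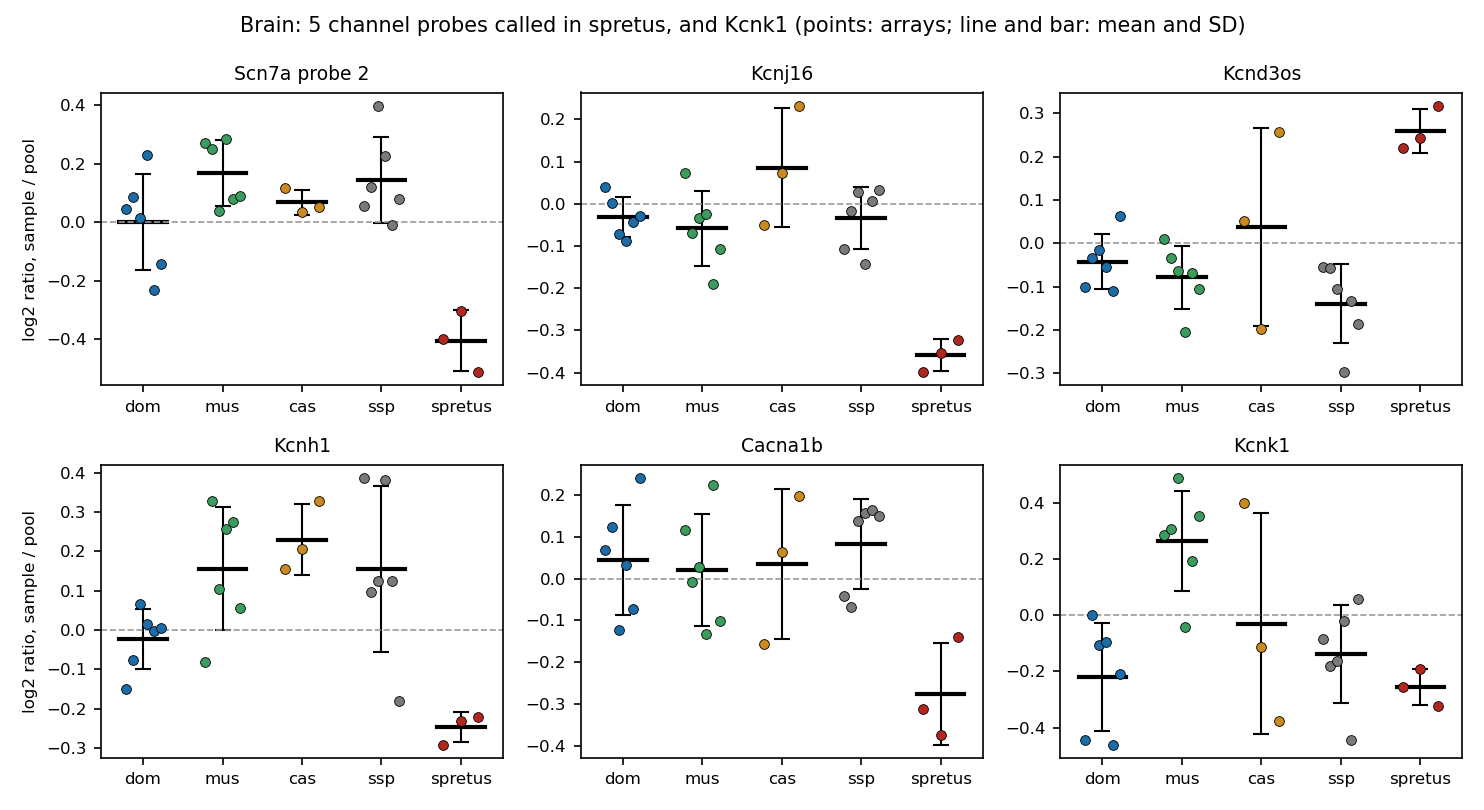
Log2 ratio of sample over pool (y axis) in brain by group (x axis), 1 point per array, with the group mean and SD as line and bar, for the 5 probes called in spretus and for Kcnk1. Spretus lies below every house mouse array for Scn7a probe 2, Kcnj16 and Kcnh1, and mus lies mostly above dom for Kcnk1.

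Spretus arrays shared set 2 with 3 ssp, 2 cas and 2 mus brain arrays, and within it all 5 probes kept their direction against each of these groups. Against ssp the differences within the set were -0.51 ± 0.11 for Scn7a probe 2, -0.32 ± 0.10 for Kcnj16, -0.36 ± 0.13 for Kcnh1, -0.43 ± 0.12 for Cacna1b and 0.47 ± 0.11 for Kcnd3os, with no adjusted p under 0.05 at 3 arrays against 3. Brain spretus arrays lay wholly outside the house mouse range for 4 members, against a background of 2.25% of all probes, and the fourth was the inward rectifier Kcnj2 (0.17 ± 0.08, not called). Among 12 marker lists for brain cell types, pituitary, choroid plexus, blood and other tissues, no member was called for spretus in brain, and the neuron list had a median of -0.01 over 9 probes.

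Of the genes listed for their roles in neurons, 13 had a tested probe, and 1 of them, Cacna1b, was called for spretus. The principal sodium channels of axons and dendrites gave -0.19 ± 0.14 for Scn1a, 0.42 ± 0.16 for Scn2a and 0.02 ± 0.09 for Scn8a. The Scn2a value rested on 1 array, since spretus read 1.20, -0.06 and -0.03, and house mice -0.54 to 0.25. The Kv subunits of the axon and of fast-spiking cells were near 0, with 0.03 ± 0.09 for Kcna1, -0.05 ± 0.10 for Kcna2 and -0.07 ± 0.09 for Kcnc1, and Kcnd2, the dendritic A-type subunit, gave 0.15 ± 0.10. Among calcium channels the P/Q-type pore Cacna1a gave 0.16 ± 0.12 and 0.19 ± 0.09 on its 2 probes, the L-type pore Cacna1c -0.03 ± 0.10, and the T-type pore Cacna1g 0.24 ± 0.10 (adjusted p = 0.169). The auxiliary subunit Cacng2 gave 0.26 ± 0.10 on probe 2 (adjusted p = 0.137) and -0.03 ± 0.07 on probe 1. The 4 probes of the beta subunit Cacnb4, whose loss causes ataxia and seizures in the lethargic mouse, lay between 0.06 and 0.27. Nearest to a call was Kcnj15, an inward rectifier, with 0.32, 0.40 and 0.24 in spretus, -0.46 to 0.28 in house mice and a difference of 0.36 ± 0.11 (adjusted p = 0.0529).

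Between house mouse sub-species no channel probe was called in brain. For mus against dom limma called 0 of 108 members (background 0.223%), and 12, or 11.1% against 9.33% of all probes, had an unadjusted p under 0.05. For cas against the mean of dom and mus it called 0 (background 0.0097%), with 7 at an unadjusted p under 0.05, or 6.48% against 12.0%. For ssp against the mean of dom, mus and cas it called 0 (background 0.097%), with 21, or 19.4% against 15.7%. Nearest was Kcnk1, a 2-pore channel that leaks potassium in astrocytes and neurons, which read -0.04 to 0.49 (median 0.30) in the 6 mus brains and -0.46 to 0.00 (median -0.16) in the 6 dom brains. The ranges touched, and the difference was 0.48 ± 0.11 (adjusted p = 0.0716). Within set 1, with 4 mus and 6 dom arrays, it was 0.58 ± 0.09 (adjusted p = 0.02), the 1 call among 112 members tested there (background 0.804%). Without mus array 5 Kcnk1 was called as well. In cas the lowest member was Kcne1, a small subunit that slows Kcnq1 channels, at -0.47 ± 0.14 (adjusted p = 0.231), and Cacna1c followed at -0.26 ± 0.10 (adjusted p = 0.33). Without cas array 2, 3 members were called for cas and 1 for ssp. In ssp the nearest was Kcnmb1, a beta subunit of the BK channel, the large-conductance channel opened by calcium and voltage, at -0.29 ± 0.07 (adjusted p = 0.0929).

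Against the C57BL6 pool the mean of the house mouse groups differed in 13 brain probes of 11 genes, or 12.0% of the members against a background of 8.95%. Of them 8 were higher (background 5.28%) and 5 lower (background 3.67%). The pool is 1 RNA, so this test leaves out the spread among the C57BL6 mice, and since no array is labelled as a dye swap, the dye and the pool cannot be told apart. With the set of arrays as a random block 0 members were called in this comparison. That setting gives every probe the same correlation within sets (0.15 in brain), which widens the SE of a mean against 0. A call lost there does not single out a probe, and the share of all probes called in that run is not given here. Kcna3, the Kv subunit known from T cells and microglia, was lowest at -0.46 ± 0.10 (adjusted p = 0.0066), while the others lay between -0.14 and 0.20. Higher were 2 of the 3 probes of Kcnma1, the BK pore (0.20 ± 0.04 and 0.11 ± 0.03), 2 of the 3 of Kcnj6, a rectifier opened by G proteins (0.18 ± 0.06 and 0.16 ± 0.03), the calcium channel beta subunit Cacnb1 (0.17 ± 0.03), Kcna2 (0.16 ± 0.04), the calcium-binding Kv partner Kcnip3 (0.13 ± 0.03) and Kcnh1 (0.13 ± 0.03). The BK beta subunit Kcnmb4 (-0.11 ± 0.03), the Kv subunit Kcnc2 (-0.09 ± 0.03), probe 1 of the sodium channel beta subunit Scn3b (-0.10 ± 0.03) and probe 4 of Cacnb4 (-0.14 ± 0.04) were lower. Calls did not hold for Kcnma1 probe 1 without dom array 5 or 10 or cas array 3 (adjusted p up to 0.0989), nor, in 12, 8, 12 and 8 of 21 fits without 1 array, for Kcnc2, Kcnmb4, Scn3b probe 1 and Cacnb4 probe 4 (up to 0.124, 0.167, 0.102 and 0.0839, with -0.07 for Kcnmb4 without cas array 2). Without dom array 10 there were 8 calls. Beside them, 2 of 9 neuron markers, 2 of 12 astrocyte probes and 2 of 3 blood markers (Hbb-b2 0.24 ± 0.05, Hba-a1 0.22 ± 0.04) were higher and 1 of 10 interneuron probes was lower, and their part in these differences was not tested.

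In liver/kidney 1 Kv auxiliary subunit separated mus from dom and another separated cas. Kcne1 read 0.14 to 0.94 (median 0.77) in mus and -0.18 to 0.12 (median 0.03) in dom. Every mus array lay above every dom array, and the difference was 0.68 ± 0.14 (adjusted p = 0.0241). All 12 arrays belonged to set 1, within which the difference was 0.68 ± 0.11 (adjusted p = 0.00211). With all groups in the fit it was the 1 call among 108 members (background 0.591%). Within set 1, where 112 members were tested, 2 were called (background 0.819%), Kcne1 and the dendritic A-type subunit Kcnd2. Kcnd2 read 0.04 to 0.38 in mus and -0.40 to -0.05 in dom, and the groups did not overlap. Its difference within the set was 0.40 ± 0.08 (adjusted p = 0.0217). The Kcne1 call with all groups in the fit did not hold without dom array 1, 3 or 6 or mus array 3, 4, 5 or 7. Its adjusted p there was up to 0.0754, and its differences were 0.62 to 0.78 over all 12 arrays left out in turn.

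For cas against the mean of dom and mus 3 members were called, all higher, or 2.78% against a background of 1.11%. Kcne1l, an X-linked relative of Kcne1, read 0.65, 1.09 and 1.73 in cas and -0.10 to 0.40 over dom and mus, a difference of 1.06 ± 0.16 (adjusted p = 0.0035). The cas arrays were all above those of dom and mus. Kcna2 read 0.63, 1.01 and 0.94 in cas and up to 0.60 in dom, with a difference of 0.64 ± 0.13 (adjusted p = 0.0196). Kcnd2 read 0.51, 0.39 and 0.74 in cas, -0.40 to -0.05 in dom and 0.04 to 0.38 in mus, a difference of 0.57 ± 0.14 (adjusted p = 0.0374). The Kcna2 call did not hold without cas array 2 or 3 (adjusted p up to 0.0832, differences of 0.57 to 0.75), and that of Kcnd2 in 9 of 15 fits without 1 array (adjusted p up to 0.197). All cas arrays here belong to set 2 and all dom and mus arrays to set 1, so the set and the group cannot be told apart, and with the set as a random block 0 of the 3 were called. Beside them 1 marker each of neurons (Nefm 0.64 ± 0.12), hepatocytes (Serpina1a 0.74 ± 0.18), kidney tubule (Umod 0.56 ± 0.13) and blood (Hba-a1 1.01 ± 0.19) was higher, of 9, 9, 8 and 3 probes, and their part was not tested. For ssp against the mean of dom, mus and cas limma called 0 members (background 0.0436%), while 11.1% of the members and 10.6% of all probes had an unadjusted p under 0.05. Against single groups within set 1 some members were called for ssp. Against dom they were 2 (background 1.10%), Kcnd2 at 0.56 ± 0.08 (adjusted p = 0.00307) and probe 3 of Kcnma1 at 0.65 ± 0.14 (adjusted p = 0.025). Against mus it was 1 (background 0.926%), Kcne1 at -0.54 ± 0.11 (adjusted p = 0.0209).

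**Figure D3:**
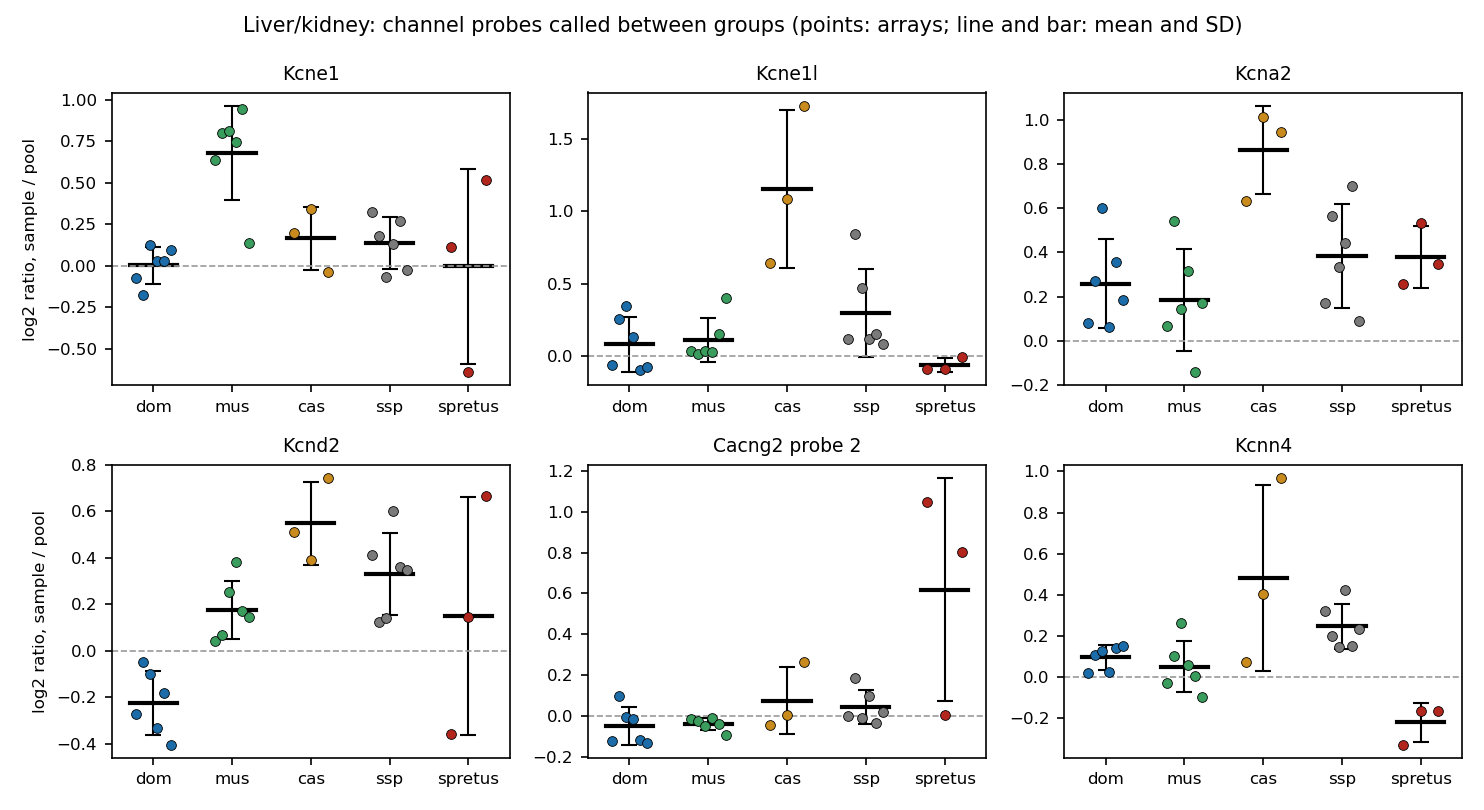
Log2 ratio of sample over pool (y axis) in liver/kidney by group (x axis), 1 point per array, with the group mean and SD as line and bar. Mus stands above dom for Kcne1, cas above dom and mus for Kcne1l, Kcna2 and Kcnd2, 2 of 3 spretus arrays stand high for Cacng2 probe 2, and all spretus arrays lie below the house mice for Kcnn4.

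Spretus liver/kidney differed from the house mice in 7 channel probes, 2 higher (background 3.03%) and 5 lower (background 4.46%). Cacng2, an auxiliary subunit known as stargazin that traffics glutamate receptors in neurons, read 1.05, 0.00 and 0.80 on probe 2 in spretus and -0.14 to 0.26 in house mice. Array 2 lay inside the house mouse range, and the difference was 0.61 ± 0.12 (adjusted p = 0.00254), with 0.40 without spretus array 1 and 0.92 without array 2. Probe 1 of Cacng2 gave 0.02 ± 0.11. Kcnn4, the calcium-opened channel of intermediate conductance known from red cells, lymphocytes and epithelia, read -0.33, -0.17 and -0.17 in spretus and -0.10 to 0.97 (median 0.14) in house mice. It was the member whose arrays did not overlap (background 1.54%), and the difference was -0.44 ± 0.11 (adjusted p = 0.0127). Without spretus array 1 its adjusted p was 0.0565.

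The other 5 calls were of smaller or less even changes. The Kv partner Kcnip4 gave -0.34 ± 0.09 (adjusted p = 0.0184), with spretus arrays at -0.11, -0.30 and -0.50 and house mice from -0.22 to 0.35. Probe 2 of Kcnj6 gave -0.38 ± 0.10, probe 1 of Cacnb4 0.32 ± 0.09, and Kcnj5, another G protein rectifier subunit, -0.23 ± 0.07. Kcnmb4os1, named as antisense to Kcnmb4, read -0.28, -0.67 and 0.76 in spretus and 0.24 to 1.39 in house mice, a difference of -0.78 ± 0.21 with array 3 inside the house mouse range. Kcnmb4 itself gave -0.05 ± 0.10. The calls did not hold without spretus array 2 or 3 for Kcnip4 and Cacnb4 probe 1 (adjusted p up to 0.144 and 0.231), without array 2 for Kcnj6 probe 2 (0.221), without array 1 or 2 for Kcnmb4os1 (0.288) and in 18 of 24 such fits for Kcnj5 (0.327, with -0.13 without spretus array 1). Kcnmb4os1 gave -0.48 without array 2 and -1.19 without array 3. With the set of arrays as a random block 0 of the 7 were called. All dom, mus and ssp arrays here belong to set 1 and no spretus array does, so set and species can be told apart only against cas. Within set 2, the 2 spretus arrays against the 3 cas arrays gave 0.85 ± 0.15 for Cacng2 probe 2 and -0.73 ± 0.26 for Kcnn4. Kcnip4 gave -0.37 ± 0.14 and Kcnj5 -0.27 ± 0.11 there. Smaller than with all groups were Kcnj6 probe 2 (-0.15 ± 0.22), Cacnb4 probe 1 (0.14 ± 0.17) and Kcnmb4os1 (-0.39 ± 0.46). No adjusted p passed within the set.

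Markers of the 2 organs moved with spretus in these samples. Of 9 hepatocyte markers 4 were lower (Alb -0.63 ± 0.16, Fgg -0.62 ± 0.18, Trf -0.48 ± 0.10, Fgb -0.42 ± 0.10), with a list median of -0.39. The loop marker Umod was higher at 0.72 ± 0.12, the 1 call among 8 kidney tubule probes. Of 3 blood markers 1 was higher (Hbb-b2 0.74 ± 0.22), and Ttr, made in liver and choroid plexus, was lower at -1.22 ± 0.24. The part of organ proportions in the channel results was not tested. Channels of tubule transport were not called for spretus: Kcnj1, the secretory channel of the thick limb and collecting duct, gave 0.30 ± 0.12 (adjusted p = 0.131), Kcnj15 0.00 ± 0.09, the 2-pore channel Kcnk5 0.29 ± 0.31, Kcne1 -0.25 ± 0.15 and the 3 Kcnq1 probes -0.14 to 0.03. Kcnj16 spread from -1.09 to 1.30 over house mouse arrays alone, and its difference was -0.07 ± 0.49.

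Against the pool the house mouse groups differed in 35 liver/kidney probes of 32 genes, 32.4% of the members against 31.4% of all probes. Of them 19 were higher (background 17.4%) and 16 lower (background 14.0%). With the set of arrays as a random block 1 member was still called in this comparison, Kcna3. The limit of that setting given for brain holds here too, with a correlation of 0.35 within sets. Kcna1, a Kv subunit that also serves magnesium transport in the distal tubule, read -0.90 to 0.00 (median -0.37) over 21 arrays, with a difference of -0.37 ± 0.04 (adjusted p = 5.52e-08). Probe 2 of Cacna1h, a T-type pore, read -0.78 to -0.14 (median -0.36), with a difference of -0.41 ± 0.04 (adjusted p = 2.79e-08), while probe 1 gave -0.05 ± 0.03. Kcnmb4os1 was higher on all 21 arrays, by 0.72 ± 0.08 (adjusted p = 2.49e-07). Also higher were Kcna2 (0.42 ± 0.05), Kcne1l (0.41 ± 0.06), probe 1 of Kcnma1 (0.31 ± 0.05), the Kv subunit Kcnq5 (0.23 ± 0.04), Kcnn4 (0.22 ± 0.04) and probe 2 of Scn7a (0.20 ± 0.04), and lower were Cacng1, a subunit of the skeletal muscle channel (-0.32 ± 0.04), and Cacna1c (-0.21 ± 0.04). In the same comparison 7 of 9 hepatocyte markers were higher, and of 8 kidney tubule probes 1 was higher and 3 lower, among them Kap (-0.73 ± 0.15) and Aqp2 (-0.57 ± 0.05). The part of organ proportions in these differences was not tested.

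In testis 12 channel probes of 12 genes differed in spretus, 8 higher (background 5.63%) and 4 lower (background 3.79%). The 6 with the largest increases were higher by 1.56-fold to 2.19-fold. Kcnip3, a calcium-binding Kv partner also known as the repressor DREAM, read 1.40, 0.74 and 0.87 in spretus against -0.68 to 0.18 (median -0.10) in 21 house mouse testes, a difference of 1.13 ± 0.16 (adjusted p = 3.46e-05). Its relative Kcnip4 read 1.20, 0.92 and 1.25 against -0.33 to 0.51 (median -0.03), a difference of 1.13 ± 0.11 (adjusted p = 1.06e-07). For neither gene did a spretus array reach down to a house mouse array.

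The calcium channel beta subunit Cacnb2 read 1.06, 0.80 and 0.91 against -0.42 to 0.17 (median -0.07), a difference of 1.01 ± 0.10 (adjusted p = 3.23e-07). Kcnn1, a small-conductance channel opened by calcium, read 0.59, 1.49 and 1.22 against -0.34 to 0.42 (median -0.02), a difference of 1.05 ± 0.14 (adjusted p = 1.33e-05). These groups were separate too, with the spretus arrays of Kcnn1 the most spread. Probe 1 of Kcnq1, the Kv subunit of heart and secretory epithelia, read 1.03, 0.78 and 0.94 against -0.37 to 0.29 (median 0.01), a difference of 0.90 ± 0.08 (adjusted p = 2.26e-08). Probes 2 and 3 of Kcnq1 gave -0.09 ± 0.07 and 0.00 ± 0.09, so the increase was seen on 1 of 3 probes. Kcna5, a Kv subunit of atrial muscle, read 0.72, 0.59 and 0.69 against -0.09 to 0.20 (median 0.04), a difference of 0.64 ± 0.05 (adjusted p = 1.45e-08), with the smallest spread of the 6. These 6 were called without any 1 of the 24 arrays and under every other setting that was run on the probe itself. Means over a gene's probes merge the 3 Kcnq1 probes, so that setting did not test Kcnq1 probe 1.

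**Figure D4:**
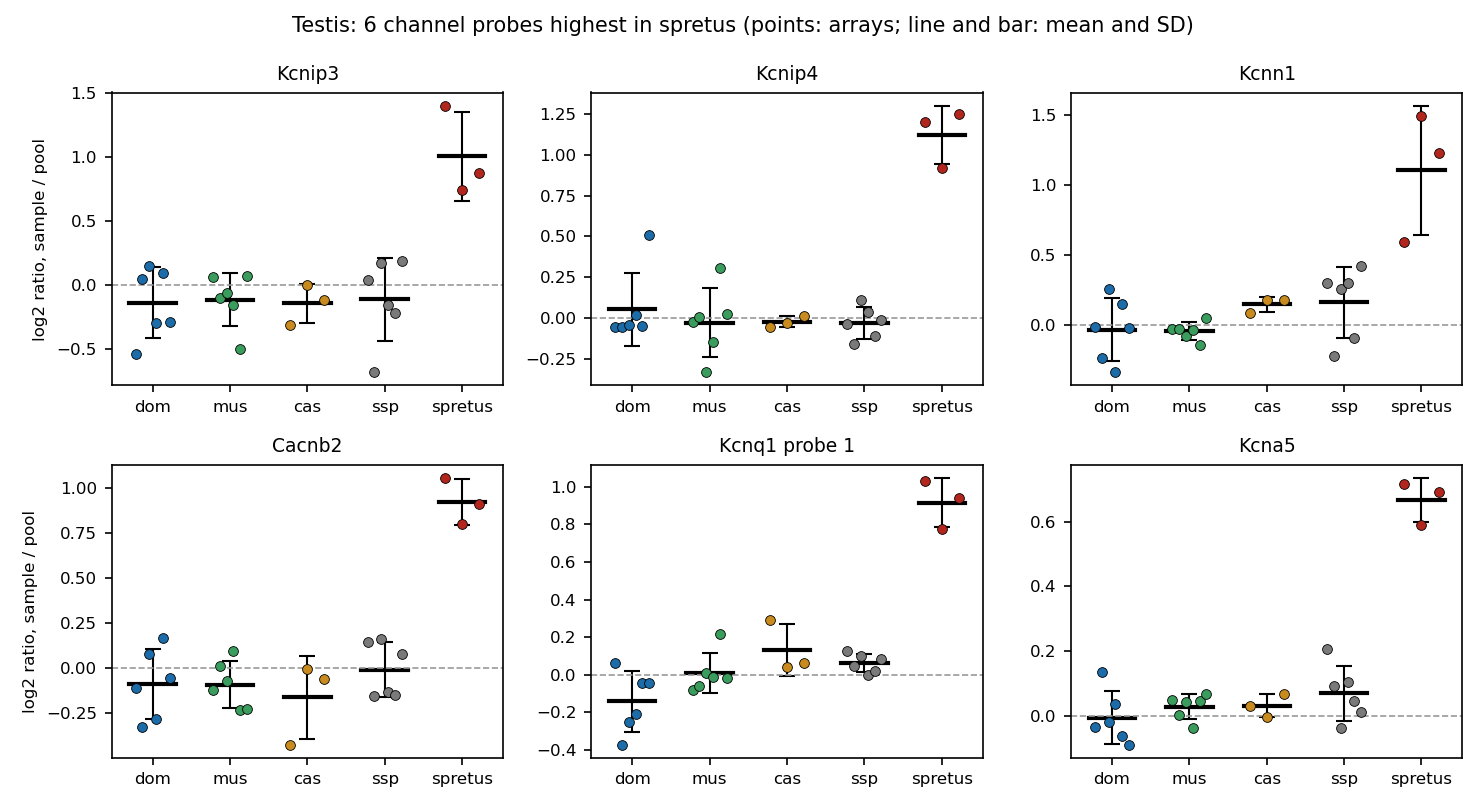
Log2 ratio of sample over pool (y axis) in testis by group (x axis), 1 point per array, with the group mean and SD as line and bar, for the 6 channel probes with the largest increase in spretus. The 3 spretus arrays lie above all 21 house mouse arrays in each panel.

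Within set 2, which held all spretus and cas arrays of testis, spretus exceeded cas by 1.15 ± 0.20 for Kcnip3, 1.15 ± 0.11 for Kcnip4, 1.09 ± 0.12 for Cacnb2, 0.96 ± 0.20 for Kcnn1, 0.78 ± 0.11 for Kcnq1 probe 1 and 0.64 ± 0.07 for Kcna5. At 3 arrays against 3 the adjusted p was 0.0736 for Kcnn1 and 0.0045 to 0.0409 for the other 5. These 5 were the calls among 109 members tested there (background 1.21%). Spretus arrays lay outside the house mouse range for 9 members, against a background of 3.64% of all probes. The median over all tested members was 0.00 and over all probes 0.01, and 57 members were above 0 and 53 below.

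The remaining 6 testis calls were smaller. Kcnn4 read -0.37, -0.63 and -0.50 in spretus and -0.32 to 0.11 in house mice, a difference of -0.40 ± 0.08 (adjusted p = 0.00317). Kcnj16 read -0.34, -0.39 and -0.40 against -0.33 to 0.15, a difference of -0.33 ± 0.07 (adjusted p = 0.00616). For both genes spretus lay below all house mice. The calcium channel subunit Cacna2d1, the target of gabapentin, gave -0.44 ± 0.11, with spretus at -0.53, -0.48 and -0.39 and the lowest house mouse at -0.54. Scn8a gave 0.20 ± 0.05, Kcng4, a Kv subunit that forms no channel alone, 0.22 ± 0.06, and probe 3 of Kcnma1 -0.18 ± 0.06, with the other Kcnma1 probes at 0.00. The calls did not hold without spretus array 2 for Kcnn4 (adjusted p = 0.0541, with 1 of 24 fits lost), without array 1 or 2 for Cacna2d1 (up to 0.0652), without array 1 or 3 for Scn8a (up to 0.0723), without cas array 2 or spretus array 1 or 3 for Kcng4 (up to 0.296, differences of 0.13 to 0.28) and in 12 of 24 fits for Kcnma1 probe 3 (up to 0.214). Quantile normalisation ended the calls of Kcnj16, Cacna2d1, Scn8a, Kcng4 and Kcnma1 probe 3, and a term for the array set, in which dom array 1 has its weakly determined place, those of Kcnn4, Kcnj16, Scn8a, Kcng4 and Kcnma1 probe 3.

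Channels known from sperm were not called. Kcnu1, the sperm potassium channel, gave -0.06 ± 0.15 for spretus, with spretus at 0.03, 0.10 and 0.05 inside a house mouse range of -0.29 to 0.66. The T-type pores gave 0.10 ± 0.13 for Cacna1g and -0.09 ± 0.16 and 0.00 ± 0.07 for the probes of Cacna1h. Among 8 germ cell markers, 2 were lower in spretus (Ldhc -1.03 ± 0.18, Prm1 -0.55 ± 0.17), with a list median of -0.07. Of 9 neuron markers Syn1 was higher (1.05 ± 0.16) and Eno2 lower (-0.40 ± 0.11), and of 6 Sertoli and Leydig cell markers Sox9 was higher (0.30 ± 0.07). The part of cell proportions in the channel results was not tested.

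Between house mouse groups limma called 0 members in testis for mus against dom (background 0.0%), for cas (background 0.0193%) and for ssp (background 0.0%), with 8, 7 and 3 members at an unadjusted p under 0.05. These were 7.27%, 6.36% and 2.73% of the members, and the shares of all probes were 6.59%, 6.25% and 4.86%. The smallest p for mus against dom was that of Kcna3, which read -1.16 to -0.42 in mus and -0.89 to 0.48 in dom, a difference of -0.65 ± 0.18 (adjusted p = 0.678). Against the pool 7 members were called, 6.36% against a background of 13.1%, with 2 higher (background 4.36%) and 5 lower (background 8.75%). They were Kcna3 (-0.42 ± 0.07), Kcnk1 (-0.30 ± 0.07), probe 2 of the mechanically gated 2-pore channel Kcnk4 (-0.19 ± 0.05), probe 2 of Kcnj6 (-0.14 ± 0.05), Kcnn4 (-0.10 ± 0.03), probe 2 of Kcnma1 (0.22 ± 0.05) and probe 2 of Cacnb4 (0.14 ± 0.03). With the set of arrays as a random block, which has the limit given for brain, 2 of them were called, Kcna3 and Kcnk1. Calls did not hold without cas array 1 or 3 for Kcnk4 probe 2 (adjusted p up to 0.0549) and in 5 and 14 of 21 fits without 1 array for Kcnn4 and Kcnj6 probe 2 (up to 0.138 and 0.155), and without cas array 1 there were 4 calls. Beside them 2 of 8 germ cell markers were higher and 1 lower, and their part was not tested.

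The testis increases were set against the other tissues of the same animals. The spretus difference was smaller in brain than in testis for 5 members (background 2.15%), with a brain minus testis value of -1.30 ± 0.19 for Kcnip3, -1.19 ± 0.15 for Cacnb2, -1.16 ± 0.16 for Kcnn1, -1.04 ± 0.12 for Kcnip4 and -0.94 ± 0.14 for Kcnq1 probe 1. In brain itself these 5 gave -0.18 to 0.09 for spretus. For Kcna5 the value was -0.40 ± 0.11 (adjusted p = 0.051), with 0.24 ± 0.10 in brain, so a difference between these tissues was not shown. Between liver/kidney and testis 8 members differed (background 5.09%). Liver/kidney minus testis was -1.47 ± 0.15 for Kcnip4, -1.18 ± 0.17 for Kcnn1, -1.12 ± 0.14 for Cacnb2, -0.87 ± 0.11 for Kcnq1 probe 1, -0.73 ± 0.21 for Kcnip3, -0.60 ± 0.11 for Kcna5, -0.31 ± 0.09 for Kcng4 and 0.63 ± 0.13 for Cacng2 probe 2. Kcnip4 had opposite signs, at 1.13 ± 0.11 in testis and -0.34 ± 0.09 in liver/kidney. In this last comparison the call for Kcnip3 did not hold without spretus animal 1 or 3 (adjusted p up to 0.318, with -0.44 without animal 1), that of Kcng4 without animal 1 or 2 (up to 0.175) and that of Cacng2 probe 2 without animal 1 (0.0597, with a difference of 0.41), and leaving out animal 1 left 5 calls. Quantile normalisation ended the calls of Kcna5, Kcnip3 and Kcng4 in it, and array weights those of Kcnip3 and Kcng4. Between brain and liver/kidney limma called 0 members (background 0.51%), with 18 at an unadjusted p under 0.05, or 16.7% against 12.0% of all probes, and it called 1, 1 and 2 when spretus animals 1, 2 and 3 were left out in turn.

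Kcnj16 and Kcnn4 were called for spretus in more than 1 tissue with the same sign. The share of all probes called in this way is not given here, so the overlap does not compare the members with other probes. Kcnj16 was lower in brain and testis, and Kcnn4 was lower in liver/kidney and testis, while Kcnn4 in brain gave 0.04 ± 0.11 (adjusted p = 0.879). Scn7a probe 2 gave -0.50 ± 0.09 in brain, -0.34 ± 0.11 in liver/kidney (adjusted p = 0.0561) and -0.17 ± 0.17 in testis, and its differences between tissues were not called.

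Kcna3 stood apart in the comparison with the pool, being lower in the house mice in all 3 tissues. In liver/kidney it read -1.41 to -0.33 in dom, -1.74 to -1.11 in mus, -1.72 to -1.22 in ssp and -2.14, -2.44 and -0.67 in cas. All 21 arrays were below 0, and the difference was -1.35 ± 0.10 (adjusted p = 7.79e-10), or 2.54-fold. In testis the range was -1.16 to 0.48 with 18 of 21 arrays below 0, and the difference was -0.42 ± 0.07 (adjusted p = 0.000332). In brain 20 of 21 arrays lay below 0 and dom array 1 read 1.33, and the difference was -0.46 ± 0.10, or -0.54 without that array. Spretus read -0.32, -0.25 and -0.57 in brain, -1.64, -0.57 and -0.20 in liver/kidney and -0.38, -0.52 and -0.33 in testis, all below 0 as well. With the set of arrays as a random block Kcna3 was called in liver/kidney and testis but not in brain. Besides Kcna3, probe 2 of Kcnma1 (higher in all 3 tissues) and probe 2 of Kcnj6 (higher in brain and liver/kidney, lower in testis) were called against the pool in every tissue. The share of all probes called against the pool in every tissue is not given here, so these calls do not set channels apart from other genes.

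**Figure D5:**
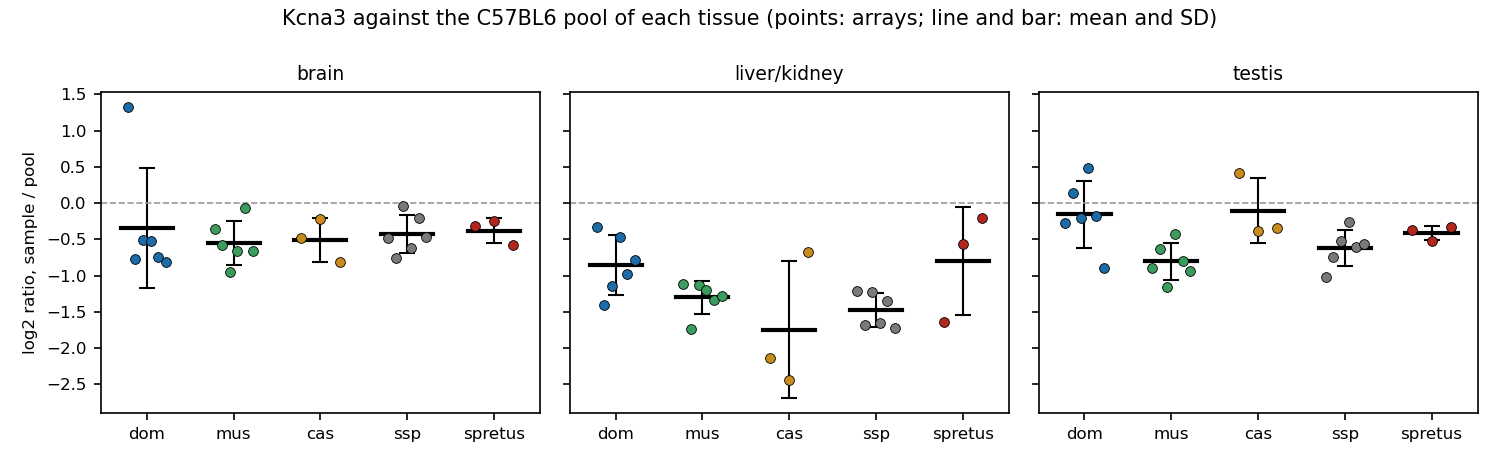
Log2 ratio of Kcna3, sample over pool (y axis), by group (x axis) in brain, liver/kidney and testis, 1 point per array, with the group mean and SD as line and bar. All liver/kidney points lie below 0, and dom array 1 at 1.33 is the brain point above 0.

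Other genes of excitability, from a list of 50 that act beside the channels, were set next to the members. In brain 48 probes of 32 of them were tested, and for spretus 3 were higher (the pacemaker channel Hcn3 0.43 ± 0.12, the calcium release channel Ryr2 0.31 ± 0.09, the sulfonylurea receptor Abcc8 0.27 ± 0.07) and 3 lower (Fgf12 -0.41 ± 0.11, which binds sodium channels, the axon spectrin Sptbn4 -0.40 ± 0.09, the sodium-calcium exchanger Slc8a3 -0.37 ± 0.09), with a median of 0.02. In testis 3 of 50 probes were higher, among them Ank3 (1.66 ± 0.38), the anchor of sodium channels at the axon start, and Fgf12 (0.73 ± 0.18), and 5 lower, with a median of -0.02. In liver/kidney 3 of 48 were higher and 4 lower. The called shares of these probes were 12.5% for brain, 14.6% for liver/kidney and 16.0% for testis. The members had 4.63%, 6.48% and 10.9%, and the background over all probes was 3.95%, 7.49% and 9.42%. The list, like the members, was chosen with earlier results of these data known, so its shares are no independent comparison with the background. It also holds several probes of 1 gene (both called Sptbn4 probes in liver/kidney, for example). The called probes of Ryr1 in liver/kidney had opposite signs, at -0.33 ± 0.09 and 0.54 ± 0.10.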

How the data were processed

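Expression was measured on 2-channel arrays of 46128 spots. The deposited values, per the labels 1 column per array, are log ratios made by the authors, taken here as log2. Their base and direction, the scanner and any correction or normalisation made before deposit are not stated in the sources used here. Neighbouring duplicate spots were averaged, 232 pairs of 1 repeated control probe were merged, and each array was centred on its median (deposited medians -0.04 to 0.06). Probe symbols came from the platform table. All 112 members matched RefSeq (GRCm38.p6), and upstream windows came from RefSeq. The array's own genome build is not given.

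Groups came from the array titles. Per tissue, limma 3.58.1 (lmFit, eBayes, R 4.3.3) was fitted with 1 coefficient per group over all 24 arrays and two-sided Benjamini-Hochberg adjustment over all probes. Mus was compared with dom, cas with the average of mus and dom, ssp with the average of those 3, spretus with the average of all 4 house mouse groups, and that average with the pool. Tissue differences were fitted on differences within animals. Named genes were all called members (up to 12 per contrast by p), the smallest p where fewer were called, listed role genes, and all probes of a named gene. Kcnd3, Kcnmb4, Kcnj2 and the non-member Ank3, Fgf12 and other list genes were named after their values were seen. The members and lists were chosen with earlier results of these data known.

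Same-numbered arrays of different groups did not deviate together (median r of -0.01, 0.00 and -0.03 in brain, liver/kidney and testis, with 1, 2 and 7 of 27 pairs over 0.1), so animal numbers pair nothing. The fit was tested on simulated data. Alternatives were quantile normalisation, array weights, complete probes, no centring, gene means, a replicate block, the array set as a term or a random block, and each array left out in turn. No centring and the random block were added after seeing the data. Tables and plots used Python 3.11.15, pandas 2.3.3, numpy 2.4.6, scipy 1.17.1 and matplotlib 3.10.9. The number of arrays limits the precision.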

Additional observations from a re-analysis of the deposited data

Results flagged for a closer look

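Dixon's test was run on 159 groups of 6 arrays, for members named because they were called, and chance flags about 1 in 20 groups. Members named without a call were not screened. In 12 of the 159 groups an array lay farther from its group than the critical value allows. In brain these were Cacnb4 probe 4 in ssp array 5 (-0.87, the others -0.28 to -0.08) and Kcna3 in dom array 1 (1.33, the others -0.81 to -0.51). In liver/kidney they were Cacna1c in ssp array 4 (-0.42), Cacng1 in ssp array 1 (0.13, the others -0.59 to -0.37), Kcna3 in mus array 3 (-1.74), Kcne1l in mus array 8 (0.40), Kcnip4 in ssp array 4 (0.35) and Scn7a probe 2 in dom array 13 (0.28). In testis they were Cacnb4 probe 2 in dom array 1 (-0.11), Kcnip4 in dom array 13 (0.51, the others -0.06 to 0.02), Kcnj6 probe 2 in ssp array 2 (-0.69) and Kcnq1 probe 1 in mus array 7 (0.21).

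The spretus difference was unlike between tissues for 13 pairs of a member and a tissue comparison, by limma on the difference itself. Brain minus testis gave -0.94 for Kcnq1 probe 1, -1.30 for Kcnip3, -1.04 for Kcnip4, -1.19 for Cacnb2 and -1.16 for Kcnn1. Liver/kidney minus testis gave -0.60 for Kcna5, -0.87 for Kcnq1 probe 1, -0.73 for Kcnip3, -1.47 for Kcnip4, -1.12 for Cacnb2, 0.63 for Cacng2 probe 2, -0.31 for Kcng4 and -1.18 for Kcnn1. No cause was tested for any of these.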

How the results depend on the processing

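No named probe changed sign in an alternative run where it was called in that run or in the fit reported. Signs were not compared where a probe was called in neither. Counts of called members are given where they moved by more than 1.5 times, and the cause was not tested unless stated. These counts, and those with 1 array left out, stand without the share of all probes called in the same run. They do not compare the members with other probes. Quantile normalisation gave 1 for mus against dom in brain (0 as reported), 1 for cas (3) and 4 for spretus (7) in liver/kidney, 7 for spretus (12) and 11 against the pool (7) in testis, and 5 for liver/kidney against testis (8). Array weights gave 1 for mus against dom, 18 for spretus (5) and 8 against the pool (13) in brain, and 3 for mus against dom in liver/kidney (1). The array set as a term gave 1 for mus against dom in brain. As a random block it gave 0 against the pool in brain, 0 for cas, 0 for spretus and 1 against the pool (35) in liver/kidney, and 2 against the pool in testis. Against the pool the random block widens the SE of every probe, so a call lost there does not single out a probe. Means over a gene's probes, which leave fewer features, gave 4 for spretus in liver/kidney. The replicate block gave 2 for spretus in brain, 0 for mus against dom and 1 for spretus in liver/kidney, and 9 for spretus in testis (12); since the numbers pair nothing, a call lost there is no weaker effect. It was not run against the pool, and the array set as a term could not be fitted against the pool nor, in liver/kidney, for any contrast but mus against dom.

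Leaving out 1 array at a time gave, in brain, 0 to 1 for mus against dom (1 without mus array 5), 0 to 3 for cas and 0 to 1 for ssp (3 and 1 without cas array 2), 2 to 7 for spretus (2 without any 1 spretus array) and 8 to 14 against the pool (8 without dom array 10). In liver/kidney it gave 0 to 1 for mus against dom, 2 to 4 for cas (2 without cas array 2, among others), 5 to 10 for spretus and 32 to 39 against the pool, and in testis 9 to 13 for spretus and 4 to 9 against the pool (4 without cas array 1). Brain against liver/kidney gave 1 to 2 (0 with all animals) and liver/kidney against testis 5 to 8 (5 without spretus animal 1). Without brain mus array 8, whose labels disagree, spretus gave 7 and mus against dom 0. Groups of 3 arrays and ratios without spot intensities limit what could be detected.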
